A study of Homo sapiens with 29 samples.

Results

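Regions of open chromatin that separated a FOXA1 ligand from a splicing inhibitor were described in parental cells of 22Rv1, an established human prostate cancer line. The 3 ATAC-seq peak lists of cells given WX-02-23 (20 µM) were set against the 3 lists of cells given pladienolide B (PladB, 100 nM), both for 3 h. Merging the peaks of these 6 lists gave 119636 regions. A region was a member when all 3 lists of one drug and no list of the other held a peak in it. This was so for 4338 regions, 3.63% of those of the 6 lists, while all 29 lists of the study merge into 166696 regions. WX-02-23 alone held 3865 members and PladB alone 473. Each member was then looked up in the 3 lists of parental cells given DMSO (0.1%, 3 h), the solvent control. Of the members of WX-02-23, 1582 had no DMSO peak and are called opened by WX-02-23, and 631 had a peak in all 3 DMSO lists and are called closed by PladB. Of the members of PladB, 33 had no DMSO peak (opened by PladB) and 273 had all 3 (closed by WX-02-23). The other 1819 members had a peak in 1 or 2 of 3 DMSO lists and were left undecided.

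FOXA1 is a pioneer transcription factor: it binds its sites in packed nucleosomal DNA and makes them accessible to other factors, in prostate cells above all to the androgen receptor. WX-02-23 is a covalent small molecule that engages a cysteine of FOXA1, C258, next to the part of the protein that contacts DNA. It is also known to bind the splicing factor SF3B1. PladB, a natural product, blocks splicing by binding SF3B1 where it meets its partner PHF5A, and is not known as a ligand of FOXA1. Setting the drugs side by side asks which accessible sites respond to the FOXA1 ligand and not to spliceosome inhibition.

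Libraries that took no part in choosing the members served for comparison. In parental cells these were WX-02-43 (20 µM), which the labels call a stereoprobe like WX-02-23, and PladB at 10 nM, with 3 libraries each and 3 h of treatment. The engineered 22Rv1 cells overexpressed Y36C-PHF5A, a variant that blunts ligands of the SF3B1 and PHF5A pocket, together with WT-FOXA1 or C258A-FOXA1 under a doxycycline (Dox) switch. Each line received Dox plus DMSO, Dox plus WX-02-23 (20 µM) and Dox plus PladB (100 nM). A further group of WT-FOXA1 cells had DMSO and no Dox. Each of these groups had 2 libraries after 3 h of treatment. All engineered groups carry Y36C-PHF5A, their DMSO controls included, and the labels do not say whether the cells' own FOXA1 was removed or whether a line is 1 clone. Whether replicates came from separate cultures is not stated in the labels, so p-values measure the spread between these libraries, which may be technical.

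Peak presence was the measure compared. The WX-02-23 lists held 95673 ± 1790 peaks (SD, n = 3) and the PladB lists 84547 ± 2558 (SD, n = 3), a difference of 11126 peaks. No WX-02-23 list was as short as any PladB list, and the 2-sided exact permutation test gave p = 0.1, the smallest that 3 against 3 libraries allow. The level of background reads recovered from the authors' fold and p-value columns, a relative measure of depth, was 0.923 to 1.121 reads per base in the WX-02-23 lists and 0.662 to 0.734 in the PladB lists. These ranges do not overlap either, so drug and depth cannot be told apart in the 6 lists. The summit of the weakest peak on that background held 5 to 7 reads in these lists, and a region under this level counts as without a peak. Genes at the regions were not analysed here, nor were the marker genes of prostate cells, since no annotation of build hg19 was used.

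WX-02-23 alone held 8.17 regions for each region that PladB alone held. With lists of equal length, which drops the weakest peaks of the longer lists, the counts were 2164 and 964. With only peaks of q 1e-05 or below in every list they were 3829 and 371. The part of list length in the ratio was not tested. The 3865 regions with a peak in 3 of 3 WX-02-23 and 0 of 3 PladB lists were 3.23% of all regions, and the 473 of the reverse kind were 0.395%. These shares are the background of the rule itself and carry no test. All 6 lists held 59262 regions. Just outside the rule lay 9179 regions that missed membership on the WX-02-23 side by 1 list, of which 5175 had 2 of 3 WX-02-23 peaks and no PladB peak and 4004 had 3 of 3 and 1. On the PladB side 2167 regions missed by 1 list.

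**Figure D1:**
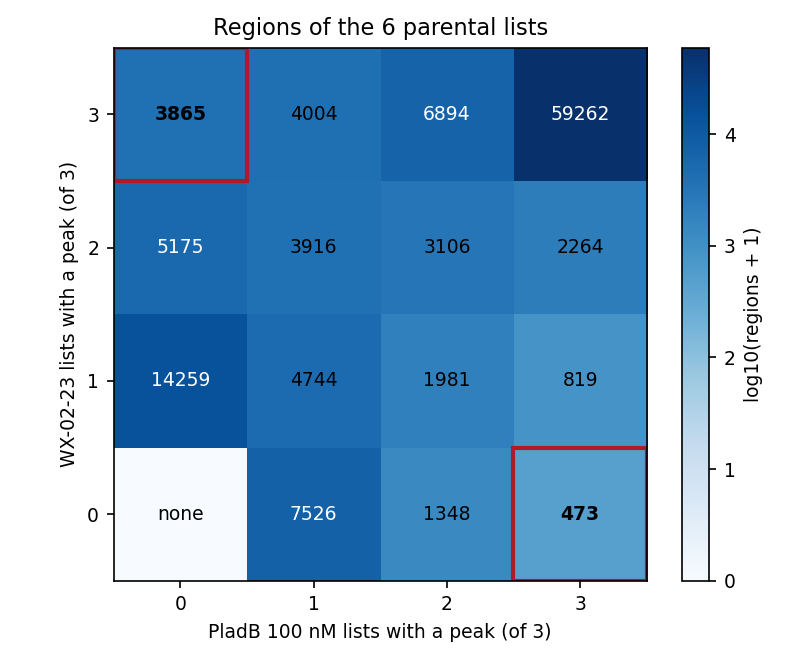
Number of regions by how many of the 3 PladB 100 nM lists (horizontal axis) and of the 3 WX-02-23 lists (vertical axis) held a peak, with colour on a log10 scale. The framed cells are the members, 3865 regions held by WX-02-23 alone and 473 held by PladB alone; 59262 regions were held by all 6 lists.

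The DMSO lists placed the 2 kinds of members differently. Among regions of WX-02-23 alone, 40.9% had no DMSO peak, 22.5% had 1, 20.3% had 2 and 16.3% had all 3. Among regions of PladB alone, 6.98% had no DMSO peak and 57.7% had all 3. Over all regions of the 6 lists, 17.9% had no DMSO peak and 59.9% had all 3. Counted by the drug that stood apart from both DMSO and the other drug, 1855 regions belonged to WX-02-23 (opened or closed by it) and 664 to PladB.

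The order of the classes changed with the treatment of the lists. With each parental list held to the same number of peaks by the authors' p-value, 1144 regions were opened by WX-02-23, 457 closed by WX-02-23, 217 closed by PladB and 109 opened by PladB. The classes closed by PladB and closed by WX-02-23 thus changed places, and a fold enrichment of at least 6 in every list also put closed by WX-02-23 (296) above closed by PladB (267). The class opened by WX-02-23 was the largest in these alternatives and in those shown in the plot of class sizes. It held 1036 regions when all 3 holding lists needed a peak of q 1e-05 or below, a setting chosen after seeing the data.

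**Figure D2:**
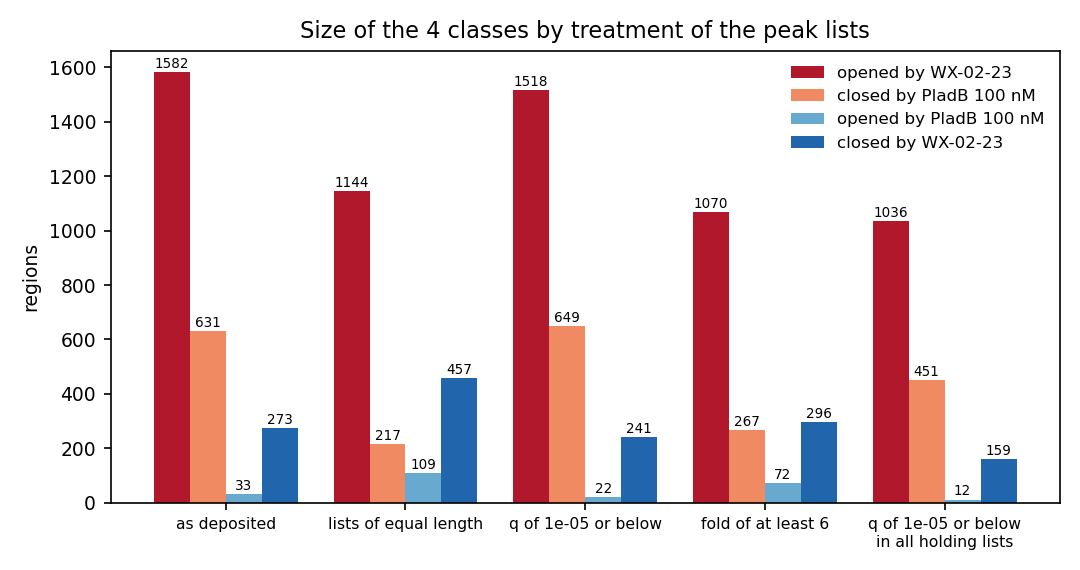
Number of regions (vertical axis) in each of the 4 classes, with the lists as deposited and under 4 other treatments of the lists. The class opened by WX-02-23 is the largest in all 5 settings shown (1036 to 1582 regions), and closed by PladB exceeds closed by WX-02-23 in 3 of them but not with lists of equal length or a fold of at least 6.

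The regions opened by WX-02-23 were mostly weak to moderate peaks, with some strong ones. Their median width was 326 bp (quartiles 273 and 397 bp), near the 343 bp of all regions (quartiles 237 and 562 bp). It was 550 bp for regions held by all 6 lists, which are merged from the peaks of more lists than a member is. By the authors' p-value their mean percentile within the WX-02-23 lists had a median of 25.1. For the regions held by all 6 lists it was 64.6, with the mean taken over all 6 lists, PladB included. A mean percentile above 50 was reached by 160 of the 1582, or 10.1%. The median fold enrichment over background, the authors' value, was 5.93. The nearest PladB peak was 8724 bp away at the median, and 10.6% had a PladB peak within 500 bp. The rule allows no PladB peak in these regions, so this distance follows in part from the choice. Another region of the class lay within 50 kb of 9.92% of them. The nearest region held by all 9 lists of WX-02-23, PladB 100 nM and DMSO was 16177 bp away at the median. Within 50 kb, 20.1% had no region held by all 9 lists, against 14.5% of all regions. The median number of such regions within 50 kb was 2 for the class and 2 over all regions.

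Of the regions named here, each class gives the 5 with the highest mean percentile in the lists that hold it. All coordinates are of build hg19. The strongest region opened by WX-02-23 lay at chr13:105137929-105138562, with a fold of 17.5, 13.8 and 12.5 in the 3 WX-02-23 lists. None of the other 12 parental lists held a peak there. All 4 engineered libraries given WX-02-23, 2 per line, held it, and no engineered DMSO or PladB library did. Of the 29 libraries of the study, a peak was thus present in all 7 given WX-02-23 and in none of the other 22.

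The other 4 regions opened by WX-02-23 lay at chr10:63090300-63090898, chr12:79838798-79839457, chr2:63661917-63662482 and chr8:29513293-29513801. Their mean fold over the 3 WX-02-23 lists was 14.5 ± 2.0, 13.9 ± 2.4, 14.0 ± 1.2 and 11.8 ± 1.0 (SD, n = 3). The chromosome 2 and chromosome 8 regions had a peak in all 4 engineered WX-02-23 libraries and in none of the other 10 engineered libraries. The chromosome 10 region had one in 1 of 2 WX-02-23 libraries of each line and in no other engineered library. The chromosome 12 region behaved otherwise in the engineered lines: every library with Dox held it, DMSO and PladB included, and neither library without Dox did. In parental cells 2 of 3 WX-02-43 libraries also held the chromosome 12 region, and 1 of 3 each the chromosome 2 and chromosome 8 regions.

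**Figure D3:**
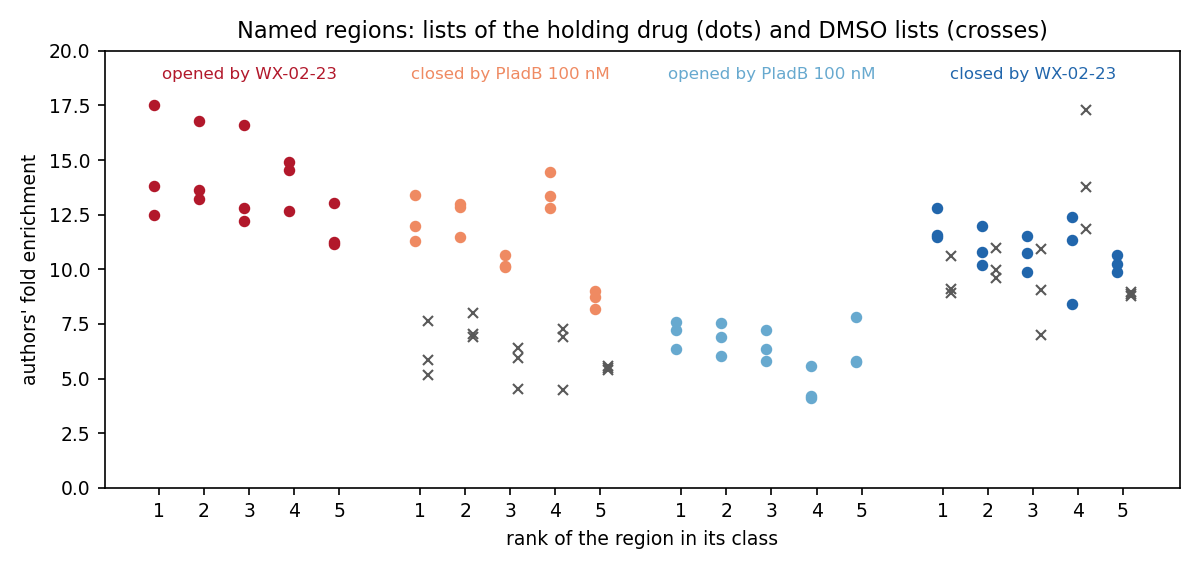
The authors' fold enrichment over background (vertical axis, linear) at the 5 highest-ranked regions of each class (horizontal axis), in the 3 lists of the drug that holds the class (dots) and in the 3 DMSO lists (crosses, absent where DMSO holds no peak). Regions opened by WX-02-23 reach a fold of 17.5, while those opened by PladB stay between 4.12 and 7.82; fold values of different lists rest on different backgrounds.

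Across parental libraries that did not choose them, the regions opened by WX-02-23 were seldom held. A peak was present in 21.2%, 22.0% and 7.84% of them in the 3 WX-02-43 libraries and in 13.8%, 8.66% and 9.36% in the 3 PladB 10 nM libraries. Both ranges lay under the share of all regions held by the same libraries, 64.4% to 74.5%. Unlike the class, all regions were not chosen for a lack of peaks in the DMSO and PladB lists of the rule. Such a choice disfavours regions with peaks in other parental lists, so the gap to all regions follows at least in part from the rule. The ranges of WX-02-43 and PladB 10 nM overlapped each other. The mean was 6.41 points higher for WX-02-43 (SE 4.86), and the 2-sided exact permutation test gave p = 0.4 and 0.8 after Benjamini-Hochberg adjustment over the 4 classes. The WX-02-43 library with the lowest share, replicate 3, was also the one with the shortest list of that group, 83748 peaks, and the highest background, 1.502 reads per base. A peak in all 3 WX-02-43 and no PladB 10 nM library was seen in 22 of the 1582 regions (1.39%), against 0.507% of all regions, and the reverse in 10 (0.632%), against 0.441%. In 883 of the 1582 regions, or 55.8%, none of these 6 libraries held a peak, where 12.1% of all regions had none. The choice of the class for missing peaks bears on this comparison too.

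The engineered lines, whose libraries did not choose the regions either, allowed the same contrast of drugs to be made again. In the WT-FOXA1 line 36.03% and 30.7% of the regions opened by WX-02-23 had a peak in the WX-02-23 libraries, 15.2% and 24.8% in the PladB libraries and 23.4% and 21.0% in the DMSO libraries. In the C258A-FOXA1 line the shares were 30.5% and 42.0% with WX-02-23, 14.5% and 16.2% with PladB and 16.7% and 18.6% with DMSO. In each line both WX-02-23 libraries lay above both PladB and both DMSO libraries. The mean difference between WX-02-23 and PladB over the 2 lines was 17.1 points (SE 4.0), while over all regions it was -3.13 points. The 2-sided exact permutation test gave p = 0.0556, the smallest that 36 arrangements within lines allow, and Benjamini-Hochberg adjustment over the 4 classes gave 0.111.

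Taken by line, that difference was 13.4 points (SE 5.46) in WT-FOXA1 cells and 20.9 points (SE 5.85) in C258A-FOXA1 cells, against -9.56 and 3.30 points over all regions. In the C258A-FOXA1 line the background was 0.648 and 0.917 reads per base with WX-02-23 and 0.546 and 0.587 with PladB. Drug and depth thus cannot be told apart in that line. In the WT-FOXA1 line the backgrounds overlapped (0.903 and 1.256 with WX-02-23, 0.789 and 0.939 with PladB). The lines differed by -7.55 points (SE 8.0), against -12.9 over all regions. The 2-sided exact permutation test for the class gave p = 0.389, and the sign turned to 8.04 points with lists of equal length. WX-02-23 against DMSO gave 11.2 points (SE 2.91) in the WT-FOXA1 line and 18.6 points (SE 5.87) in the C258A-FOXA1 line, and PladB against DMSO -2.18 (SE 4.92) and -2.34 (SE 1.30). These 2 comparisons share the DMSO libraries of their line.

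Region by region, 135 of the 1582 had a peak in 2 of 2 WX-02-23 and 0 of 2 PladB libraries of the WT-FOXA1 line, or 8.53%, where 0.674% of all regions did. The reverse was seen in 11 of them, or 0.695%, against 4.79% of all regions. In the C258A-FOXA1 line 161 of them (10.2%) were held by both WX-02-23 and neither PladB library, against 2.36% of all regions, and 3 (0.190%) the other way, against 0.899%. All 4 engineered WX-02-23 libraries and none of the 4 PladB libraries held 47 of the 1582, or 2.97%, against 0.171% of all regions. No region of the class showed the opposite pattern, which was also rare over all regions (0.205%).

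In the WT-FOXA1 line the same regions were held more often in the libraries with Dox than in those without. Without Dox, 4.74% and 3.73% of the regions opened by WX-02-23 had a peak in the DMSO libraries of the WT-FOXA1 line, and with Dox 23.4% and 21.0%. The difference was 17.95 points (SE 1.30), against 5.15 points (SE 1.62) over all regions. The lists with Dox were also longer (88140 and 85009 peaks) than those without (69814 and 67195). Their background was higher too, 0.869 and 0.844 against 0.809 and 0.723 reads per base. Induction, list length and depth cannot be told apart in these libraries. The other classes were also held more often with Dox, by 19.7 points (SE 3.39) for the 33 regions opened by PladB, 10.8 points (SE 2.86) for those closed by PladB and 8.97 points (SE 3.26) for those closed by WX-02-23. Both libraries with Dox and neither without held 218 of the 1582, or 13.8%, where 3.8% of all regions did, and the reverse was seen in 5 of them, against 0.824% of all regions. With 2 libraries against 2, no exact test of these values can fall under 0.333, and none was made.

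**Figure D4:**
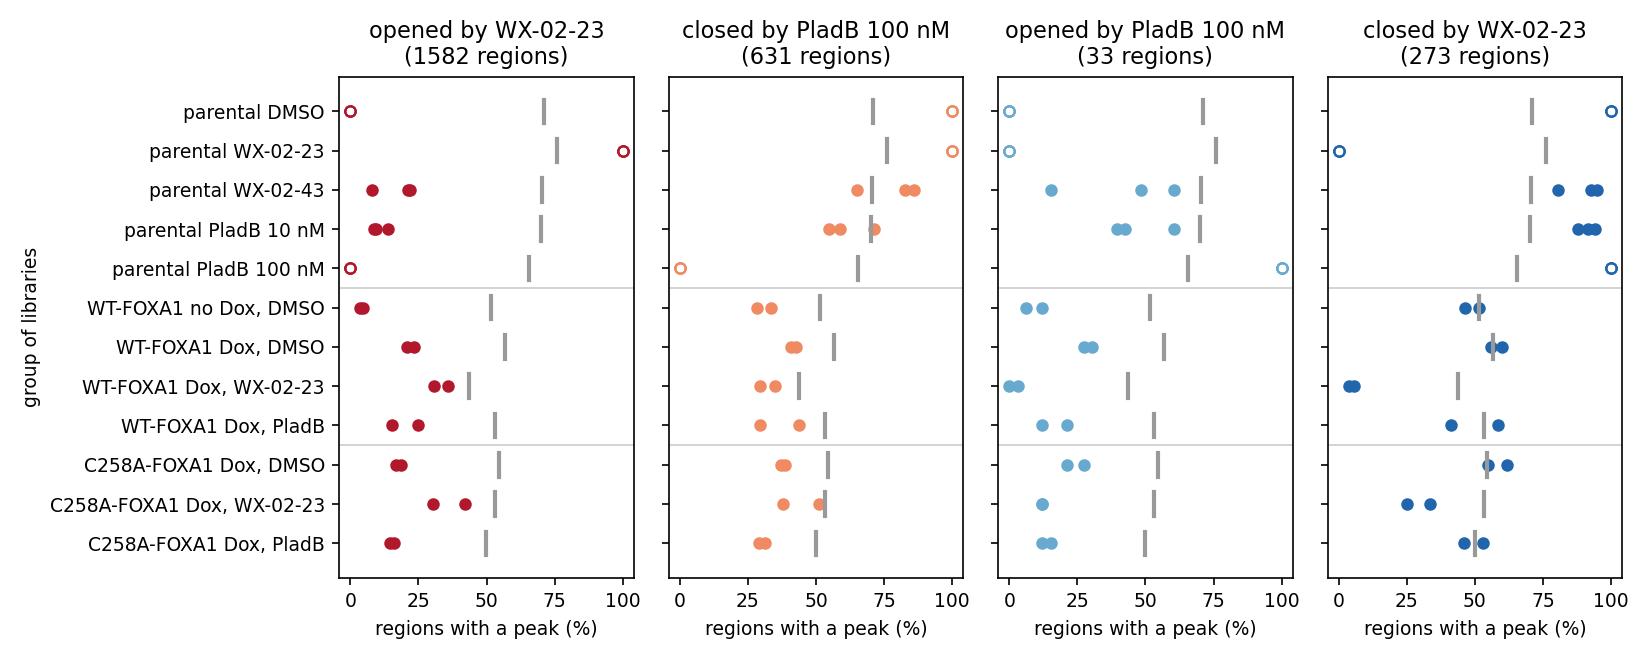
Share of each class with a peak (horizontal axis, %) in every library (1 point per library), by group (vertical axis). Open points are the groups that defined the classes, filled points the libraries that did not, and grey bars the group's mean share over all regions; in both engineered lines the regions opened by WX-02-23 are held most often after WX-02-23 (30.5% to 42.0%) and those closed by WX-02-23 least often (3.66% to 33.3%).

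Most regions closed by WX-02-23 had a peak under the other parental treatments. They were held in 94.9%, 92.7% and 80.6% by the 3 WX-02-43 libraries and in 94.1%, 91.6% and 87.9% by the 3 PladB 10 nM libraries. The mean difference was -1.83 points (SE 4.79), and the 2-sided exact permutation test gave p = 0.9. All 6 of these libraries held 170 of the 273, or 62.3%, and the rest lacked a peak in at least 1 of them. Over all regions, which unlike the class were not chosen for peaks with DMSO and PladB 100 nM, 53.0% were held by all 6. The regions held by all 6 lists of WX-02-23 and PladB 100 nM had a peak in 97.1% to 99.4% in the same libraries, more than this class. Its presence after DMSO and PladB 100 nM and its absence after WX-02-23 come from the rule that chose it. The WX-02-43 and PladB 10 nM libraries took no part in the rule. Still, a choice for peaks in all DMSO and PladB 100 nM lists favours regions with peaks in other parental lists.

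In both engineered lines these regions were held least often under WX-02-23. Of the 273 regions, 60.1% and 56.0% had a peak in the DMSO libraries of the WT-FOXA1 line, 41.4% and 58.6% in the PladB libraries, and 5.49% and 3.66% in the WX-02-23 libraries. In the C258A-FOXA1 line the shares were 54.9% and 61.9% with DMSO, 46.2% and 53.1% with PladB and 24.9% and 33.3% with WX-02-23. In each line both WX-02-23 libraries lay under all 4 others. The mean difference between WX-02-23 and PladB over the 2 lines was -33.0 points (SE 5.12), against -3.13 over all regions, and the 2-sided exact permutation test gave p = 0.0556, the smallest possible, and 0.111 after Benjamini-Hochberg adjustment over the 4 classes.

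By line the difference was -45.4 points (SE 8.66) in WT-FOXA1 cells and -20.5 points (SE 5.46) in C258A-FOXA1 cells, against -9.56 and 3.30 over all regions. The lines differed by -24.9 points (SE 10.2), against -12.9 over all regions. The 2-sided exact permutation test for the class gave p = 0.167 and 0.222 after Benjamini-Hochberg adjustment. The difference between the lines was thus not established with 2 libraries per group. With lists of equal length it was -10.7 points. The WX-02-23 lists of the WT-FOXA1 line were also shorter (67815 and 62832 peaks) than its PladB lists (71121 and 88735), and over all regions the difference was -9.56 points. The part of list length in the value of that line was not tested beyond this. Region by region, 82 of the 273 (30.04%) were held by both PladB and neither WX-02-23 library of the WT-FOXA1 line, against 4.79% of all regions, and 27 (9.89%) in the C258A-FOXA1 line, against 0.899%. Both lines showed this in 12 regions, or 4.396%, against 0.205% of all regions.

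These regions were of moderate strength with DMSO. Their mean percentile had a median of 35.0 in the DMSO lists and 24.98 in the PladB lists, and the median fold was 6.73 and 6.10 in those lists. The median width was 307 bp. The nearest region held by all 9 lists lay 19001 bp away at the median, and 23.1% had none within 50 kb. The strongest lay at chr12:15574256-15574590, with a fold of 11.5, 11.6 and 12.8 in the PladB lists and 9.09, 10.6 and 8.91 in the DMSO lists. All WX-02-43 and PladB 10 nM libraries held it, and no engineered library did, so it could not be followed there.

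The region at chr2:9548730-9549236 could be followed. Both DMSO, both PladB and both uninduced libraries of the WT-FOXA1 line held it, and neither WX-02-23 library did. In the C258A-FOXA1 line 1 of 2 WX-02-23 libraries and all 4 others held it. The region at chr10:51767490-51768257 was held by all 10 engineered libraries without WX-02-23 and by none of the 4 with it. The remaining named regions differed from this. The one at chr19:20771945-20772459 was held by 1 engineered library, without Dox. That at chr10:27292378-27292772 was held by all 14 engineered libraries, WX-02-23 included. Its fold in the parental DMSO lists was 11.8, 17.3 and 13.8.

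The regions closed by PladB 100 nM ranked low in both the WX-02-23 and the DMSO lists. The median of their mean percentile was 28.6 where WX-02-23 was given and 23.8 with DMSO, with a median width of 334 bp and a median fold of 5.93 in the WX-02-23 lists. A PladB peak lay within 500 bp of 17.0% of them. At the lower dose, PladB 10 nM, 71.5%, 58.95% and 54.8% of the 631 regions still had a peak, and in the WX-02-43 libraries 82.6%, 86.1% and 65.0%. The 2 ranges overlap. Of all regions, the PladB 10 nM libraries held 67.4% to 74.0% and the WX-02-43 libraries 64.4% to 74.5%. Unlike the class, all regions were not chosen for a peak in every DMSO list. The mean share of the class was 16.1 points higher for WX-02-43 (SE 8.22), and the 2-sided exact permutation test gave p = 0.2 and 0.8 after Benjamini-Hochberg adjustment.

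Over both engineered lines together the drugs were not separated beyond the spread between libraries, while in the C258A-FOXA1 line alone both WX-02-23 libraries lay above both PladB libraries. In the WT-FOXA1 line 34.9% and 29.5% of these regions had a peak with WX-02-23, 29.5% and 43.6% with PladB and 42.6% and 40.7% with DMSO. In the C258A-FOXA1 line it was 38.0% and 51.2% with WX-02-23, 29.2% and 31.4% with PladB and 37.1% and 38.5% with DMSO. Drug and depth cannot be told apart in that line, as given above. The WX-02-23 minus PladB difference was -4.36 points (SE 7.55) in the first and 14.3 points (SE 6.67) in the second line, against -9.56 and 3.30 points over all regions. Over both lines it was 4.99 points (SE 5.04), against -3.13 over all regions, and the 2-sided exact permutation test gave p = 0.5. The lines differed by -18.7 points (SE 10.1), against -12.9 over all regions, and the 2-sided exact permutation test gave p = 0.111, or 0.222 after Benjamini-Hochberg adjustment. That value was 0.461 points with lists of equal length. Without WT-FOXA1 PladB replicate 2 the value of the first line turned to 2.69 points. PladB against DMSO was -7.53 points (SE 1.32) in the C258A-FOXA1 line, against -4.51 points over all regions, and -5.15 points (SE 7.12) in the WT-FOXA1 line, against -3.54. Both lines carry Y36C-PHF5A, and what the PladB change would be without it was not measured there.

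The strongest region closed by PladB lay at chr3:187126728-187127300. Its fold was 11.3, 13.4 and 12 in the WX-02-23 lists and 5.17, 5.83 and 7.64 in the DMSO lists, which rest on other backgrounds. All 3 WX-02-43 and 2 of 3 PladB 10 nM libraries held it. In the engineered lines both WX-02-23 libraries of each line held it, both DMSO and 1 of 2 PladB libraries of the WT-FOXA1 line did, and no DMSO or PladB library of the C258A-FOXA1 line. The next 4 lay at chr6:81445878-81446592, chr3:126256314-126256900, chr3:106268578-106269102 and chr12:103270680-103271271. All 4 engineered WX-02-23 libraries held a peak at all 5 regions. Both PladB libraries of each line also held the chromosome 6 region and the chromosome 3 region starting at 106268578. The chromosome 12 region was held by both PladB libraries of the WT-FOXA1 line and 1 of 2 of the C258A-FOXA1 line. With Dox and DMSO, both WT-FOXA1 libraries and at least 1 of 2 C258A-FOXA1 libraries held each of these regions. The folds of all 5 regions were higher in the WX-02-23 than in the DMSO lists. The 5 were picked for their rank in the WX-02-23 lists, and over the whole class the median fold was 5.93 with WX-02-23 and 5.71 with DMSO. At the chromosome 3 region starting at 126256314 no PladB 10 nM library and no engineered library other than those with WX-02-23 held one.

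The 33 regions opened by PladB were few, narrow and weak. Their median width was 247 bp and their median percentile in the PladB lists 17.4, none had a mean percentile above 50, and the highest mean fold was 7.04. The WX-02-43 libraries held 48.5%, 60.6% and 15.2% of them and the PladB 10 nM libraries 60.6%, 42.4% and 39.4%. These libraries held 64.4% to 74.5% of all regions, which unlike the class were not chosen for no DMSO peak. In the WT-FOXA1 line 12.1% and 21.2% had a peak with PladB and 30.3% and 27.3% with DMSO, and in the C258A-FOXA1 line 12.1% and 15.2% with PladB and 27.3% and 21.2% with DMSO. In both lines they were thus held less often after PladB than after DMSO. The difference was -12.1 points (SE 4.79) in the WT-FOXA1 and -10.6 points (SE 3.39) in the C258A-FOXA1 line. Over all regions it was -3.54 and -4.51 points, and 1 region is 3.03% of this class. The WX-02-23 minus PladB difference over the 2 lines was -8.33 points (SE 2.51), against -3.13 over all regions. The 2-sided exact permutation test gave p = 0.167. The difference turned to 1.14 points with a q-value of 1e-05 or below. The highest-ranked region lay at chr18:44547332-44547596, with a fold of 6.34, 7.57 and 7.22. It was held by all 3 PladB 10 nM libraries, 1 of 3 WX-02-43 libraries and no engineered library.

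The others lay at chr6:82201188-82201502, chr2:23358732-23358967, chr11:118271490-118271684 and chr5:107484422-107484735. The chromosome 6 and chromosome 11 regions began or ended 20 and 57 bp from a peak of a WX-02-23 list, so they adjoin sites that WX-02-23 also held. The chromosome 6 region was held by both DMSO libraries with Dox and both PladB libraries of the WT-FOXA1 line, and by neither of its WX-02-23 libraries. In the C258A-FOXA1 line both DMSO, 1 of 2 PladB and 1 of 2 WX-02-23 libraries held it. In parental cells 2 of 3 WX-02-43 and 2 of 3 PladB 10 nM libraries did.

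The classes were spread unevenly over the chromosomes. Regions opened by WX-02-23 made up 13.2 of 1000 regions in the genome as a whole. Their rate was highest on chromosome 13, at 19.8 per 1000 (66 regions), followed by chromosome 5 at 18.1 and chromosome 4 at 17.6. It was lowest on chromosome 19, at 3.05 per 1000, where 13 of 4269 regions were opened by WX-02-23. Chromosome 22 (7.42), chromosome 16 (7.65) and chromosome 17 (8.69) were also low. Chromosomes 16, 17, 19 and 22 are known as gene-dense and chromosomes 4, 5 and 13 as gene-poor. Regions closed by PladB made up 5.27 per 1000 in the genome. Among the autosomes their rate was highest on chromosome 5 (7.30) and lowest on chromosome 22 (1.86), and it was 6.04 on chromosome 4. Their rates on chromosomes 13 (5.10), 16 (5.27), 17 (5.09) and 19 (5.15) were close to that of the genome. On chromosome 19 there were 22 regions closed by PladB beside the 13 opened by WX-02-23, while in the genome there were 631 beside 1582. These rates are descriptions without a test, since regions are not replicates.

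**Figure D5:**
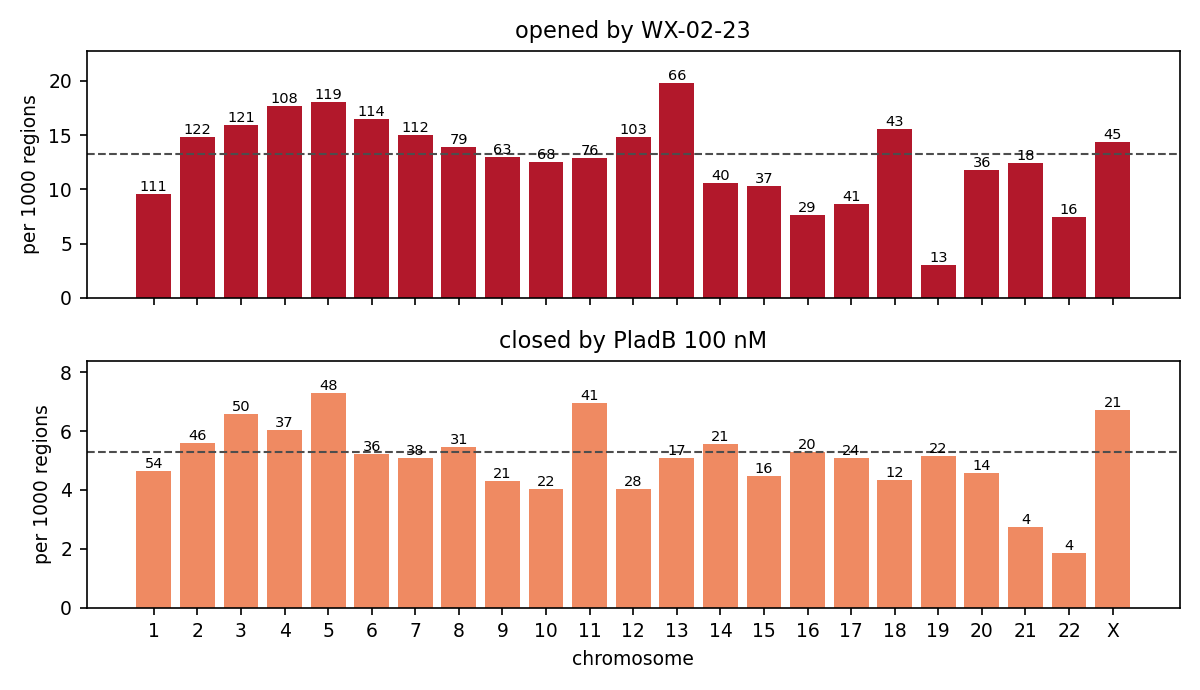
Regions opened by WX-02-23 (top) and closed by PladB 100 nM (bottom) per 1000 regions of the 6 lists (vertical axes), by chromosome (chromosome Y not drawn). Numbers over the bars are regions and dashed lines the genome-wide rates of 13.2 and 5.27; chromosome 19 stands at 3.05 in the upper and 5.15 in the lower plot.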

How the data were processed

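ATAC-seq kit libraries were processed with Bowtie2 and MACS2 on hg19, per the submitters' processing notes. The sources used here give no version or option, nor the handling of duplicates and of the transposase offset. The authors deposited 1 peak list per library, unpooled, with a score (10 times the −log10 of the q-value), a fold over local background (a ratio), and the −log10 of the p-value. These are the authors' values and were used within a list alone.

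Peaks on chromosomes 1 to 22, X and Y of the 6 lists were merged where they overlapped or touched, and a list held a region when a peak overlapped it by at least 1 bp. Shares per library were compared by permuting libraries exhaustively within line (exact, 2-sided). Background reads were recovered from fold and p-value, assuming a Poisson model (tolerance 0.001 in −log10 p). Read depth is otherwise unknown. The counting was tested on simulated data, and the merge checked against bedtools 2.31.1. Named regions are the 5 highest of each class by mean within-list percentile of the authors' p-value. Members, lists and tests were chosen with earlier results of these data known. Motif, gene and marker lists in the plan were not analysed here, as no hg19 genome or annotation was used. Python 3.11.15, numpy 2.4.6, pandas 2.3.3 and scipy 1.17.1 were used.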

Additional observations from a re-analysis of the deposited data

How the results depend on the processing

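Leaving out a library, allowing 1 of 6 lists to deviate or asking for a majority of DMSO lists loosens the rule by construction, so the counts rise. For the other changes the cause was not tested. A list shows no peak where reads are too few. The PladB 100 nM lists had the lowest recovered background of the parental lists, and the part of depth in the classes that rest on a missing PladB peak was not tested. Background did not track list length in every library (1.502 reads per base with 83748 peaks in WX-02-43 replicate 3). With 1 deviating list allowed, 13044 regions were held by WX-02-23 alone and 2640 by PladB alone, with 4393 opened and 1092 closed by WX-02-23 and 408 opened and 2778 closed by PladB. With a majority of DMSO lists, 2450 were opened by WX-02-23, 87 opened by PladB and 1415 closed by PladB. With lists of equal length, 2164 were held by WX-02-23 alone, 964 by PladB alone, 457 closed by WX-02-23, 109 opened by PladB and 217 closed by PladB. With a fold of at least 6, 2229 were held by WX-02-23 alone, 72 opened and 267 closed by PladB. With summit windows in place of merged peaks, 874 were held by PladB alone and 129 opened by PladB. With a peak of q 1e-05 or below in all holding lists, chosen after seeing the data, 228 were held by PladB alone, 1036 opened and 159 closed by WX-02-23 and 12 opened by PladB. Leaving out 1 library gave 5010 to 6018 regions for WX-02-23 alone, 679 to 1036 for PladB alone, 1688 to 2572 opened and 292 to 484 closed by WX-02-23, and 42 to 185 opened and 764 to 1289 closed by PladB. The highest came without WX-02-23 replicate 2 (WX-02-23 alone and opened by it), WX-02-23 replicate 1 (closed by it), PladB replicate 1 (PladB alone and opened by it) and PladB replicate 2 (closed by it). The difference in list length was 10122 to 12566 peaks without 1 library.

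Differences in share, WX-02-23 minus PladB in points, held their sign over both engineered lines for regions opened and closed by WX-02-23 in every alternative run (11.8 to 20.0 and -37.3 to -28.5 without 1 library). In the WT-FOXA1 line the regions opened by WX-02-23 gave 5.03 with 1 deviating list and 25.3 with lists of equal length, where the difference between the lines was 8.04, and those closed by WX-02-23 gave -31.2 with equal length. For regions closed by PladB the WT-FOXA1 value became 8.99 with equal length (0.461 between the lines) and 0.222 with q 1e-05 in all holding lists, and ran from -11.4 to 2.69 without 1 library. The few regions opened by PladB moved most. Their C258A-FOXA1 value was 0.858 with 1 deviating list, 0.694 with a fold of 6, 1.38 with equal length, 4.17 with q 1e-05 in all holding lists, 4.55 with q 1e-05 throughout, -6.59 with summit windows and -3.66 with 50% of a region covered, and -3.03 to 2.43 without 1 library. Their WT-FOXA1 value was -6.37, -5.56, -6.88, -2.27 and -3.88 with 1 deviating list, a fold of 6, equal length, q 1e-05 throughout and summit windows, and -19.7 to -5.68 without 1 library. With q 1e-05 throughout, both lines together gave 1.14 and WX-02-43 minus PladB 10 nM 1.52. The latter ran from -15.7 to 7.07 without 1 library, and the difference between the lines was 2.71 with summit windows. For regions closed by WX-02-23, WX-02-43 minus PladB 10 nM ran from -4.58 to 2.56 without 1 library, the highest without WX-02-43 replicate 3.

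Replicate numbers are shared by the groups, but presence in same-numbered libraries did not vary together (correlations of -0.0182 to 0.0471), so they were not taken as pairs. In the paired fit (replicate block) the difference in list length stayed 11126 peaks and its exact 2-sided permutation p was 0.25, the smallest possible with 8 sign changes. For the shares over both lines it was 0.125 (opened by WX-02-23), 0.125 (closed by WX-02-23), 0.5 (closed by PladB) and 0.25 (opened by PladB), where 0.125 is the smallest possible. The unpaired tests could not fall under 0.1 for list length and 0.0556 for the shares. With such floors the paired and unpaired p-values cannot show whether pairing mattered.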

Other observations

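The lists of the 2 drugs were less alike than those of either drug and DMSO. Of the bases that a pair of lists covers together, the share that both cover (Jaccard index) was on average 0.663 ± 0.010 between WX-02-23 and PladB 100 nM (SD over 9 pairs). It was 0.686 ± 0.004 between WX-02-23 and DMSO and 0.678 ± 0.011 between PladB and DMSO (SD over 9 pairs each), 0.724 ± 0.005 within WX-02-23 and 0.698 ± 0.006 within PladB (SD over 3 pairs each). Pairs share libraries, so no test was made.

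Some regions opened by WX-02-23 lay together. The 1 Mb window of hg19 with the most of them was on chromosome 3 from 80000001 to 81000000, where 6 of 21 regions were opened by WX-02-23. Windows on chromosome 7 from 13000001 to 14000000 and chromosome 12 from 74000001 to 75000000 held 5 each, of 35 and 39 regions. The fullest windows for regions closed by PladB or closed by WX-02-23 held 3. These windows were picked for their counts.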
